A study of Saccharomyces cerevisiae with 26 samples.

Results

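The undrugged sporulation course of the second set follows budding yeast (Saccharomyces cerevisiae) between 1 h and 4 h after filtration, with no drug and no solvent named in the label. It consists of the 2 arrays titled SR8, taken 4 h after filtration, set against the 2 arrays titled SR5, taken 1 h after it, which makes 4 of the 26 arrays of the series. The members were taken by array title and not by any measured value.

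All cultures of the course had been grown in glucose medium (YPD) for 24 h, moved to acetate medium (YPA) overnight at 30 °C, and put into sporulation medium of 0.3% potassium acetate at room temperature. After 4 h in that medium the cells were filtered and put back into medium. For the SR arrays no drug, no DMSO and no temperature after filtration are given. Strain and genotype are not given in the labels either. The SR4 arrays (2) show the second set after 4 h in sporulation medium, before filtration. The other courses, 3 in all, cover the same hours after filtration with 2 arrays at each time. The SD8 and SD5 arrays come from medium with 0.4% DMSO, a solvent. The SC8 and SC5 arrays come from pre-chilled medium with DMSO kept at 10 °C. The SB8 and SB5 arrays come from medium with benomyl, a drug that depolymerizes microtubules, dissolved in DMSO. The SC arrays belong to the second set, like SR, and the SD and SB arrays to the first. The sets were split by whether instrument settings with a scan day were at hand, and not by a batch named in the labels.

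Sporulation is the developmental route by which a starved diploid yeast cell passes through meiosis and packs the meiotic products into spores. The starvation-induced activator Ime1 opens the early genes of DNA replication and recombination, and the factor Ndt80 later opens the middle genes, which drive the meiotic divisions and build the prospore membrane and the spore wall. The repressor Sum1 holds many middle genes silent until Ndt80 displaces it, and the late genes that finish the dityrosine layer of the wall follow the middle ones.

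The values are log2 signals of Affymetrix probe sets after quantile normalization, and differences are log2 differences, 4 h minus 1 h, with the model's standard error (SE) and 2 arrays in each group. Calls rest on limma with Benjamini-Hochberg adjustment over the 7876 probe sets tested and a threshold of 0.05, and "rose" and "fell" are used of called genes. A level under 5.44, the 25th percentile of all values, may be background, because no detection calls were at hand. The labels do not say that the arrays of a group come from separate cultures, so the p-values measure the spread between arrays, which may be technical. In RNA from a whole culture, more cells at a stage and more transcript in each cell cannot be told apart.

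The arrays of the course were uneven in quality. SR5 replicate 1 had a deposited interquartile range of 2.47, against 2.78 to 3.09 for the other 25 arrays. The SR5 pair correlated at 0.963, where the pairs other than SR5 and SB5 lay between 0.984 and 0.995. Across probe sets the SR5 arrays deviated from their mean by a standard deviation of 0.249, against 0.09 for the SR8 arrays. The test pools the spread over all 13 groups, and a fit of these 4 arrays alone called 324 probe sets in place of 638.

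Between 1 h and 4 h, genes of the meiotic divisions, the prospore membrane and the spore wall rose together, while no gene of the meiotic entry and recombination lists was called. In all, 431 probe sets were higher at 4 h (5.47% of those tested) and 207 were lower (2.63%). The imbalance was larger among strong changes, with 219 probe sets higher by at least 2-fold (2.78%) and 27 lower by at least 2-fold (0.343%). The median log2 difference of all probe sets was −0.045. The balance of rises and falls depended on the scaling, since the values as deposited gave 536 higher and 58 lower, and median centring 423 and 122. The deposited scale moved the median of all probe sets to 0.062. Single arrays moved the count too, to 306 without SR8 replicate 2, 405 without SR8 replicate 1 and 1044 without SR5 replicate 2.

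Both markers of spore-forming cells rose. SPR2 (YOR214C), which encodes a putative spore wall protein, had levels of 10.51 and 10.38 at 4 h, against 4.52 and 4.98 at 1 h. The difference was 5.70 ± 0.33 (SE, n = 2 arrays each, adjusted p = 1.04e-09), and since both 1 h levels lie under 5.44 its size is uncertain. RRT5 (YFR032C), a gene known for its expression in sporulation, had levels of 11.82 and 12.24 at 4 h, against 6.74 and 6.90 at 1 h, a difference of 5.21 ± 0.25 (SE, adjusted p = 3.44e-10). For both genes the SR5 arrays lay within 1 log2 unit of the SR4 arrays taken before filtration, where SPR2 had 4.20 and 4.26 and RRT5 had 6.12 and 5.99. No member of the haploid mating list was called among the 10 of 13 that passed the filter, although 4 had an unadjusted limma p under 0.05, and their levels lay between 4.53 and 9.20 on the 4 arrays.

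**Figure D1:**
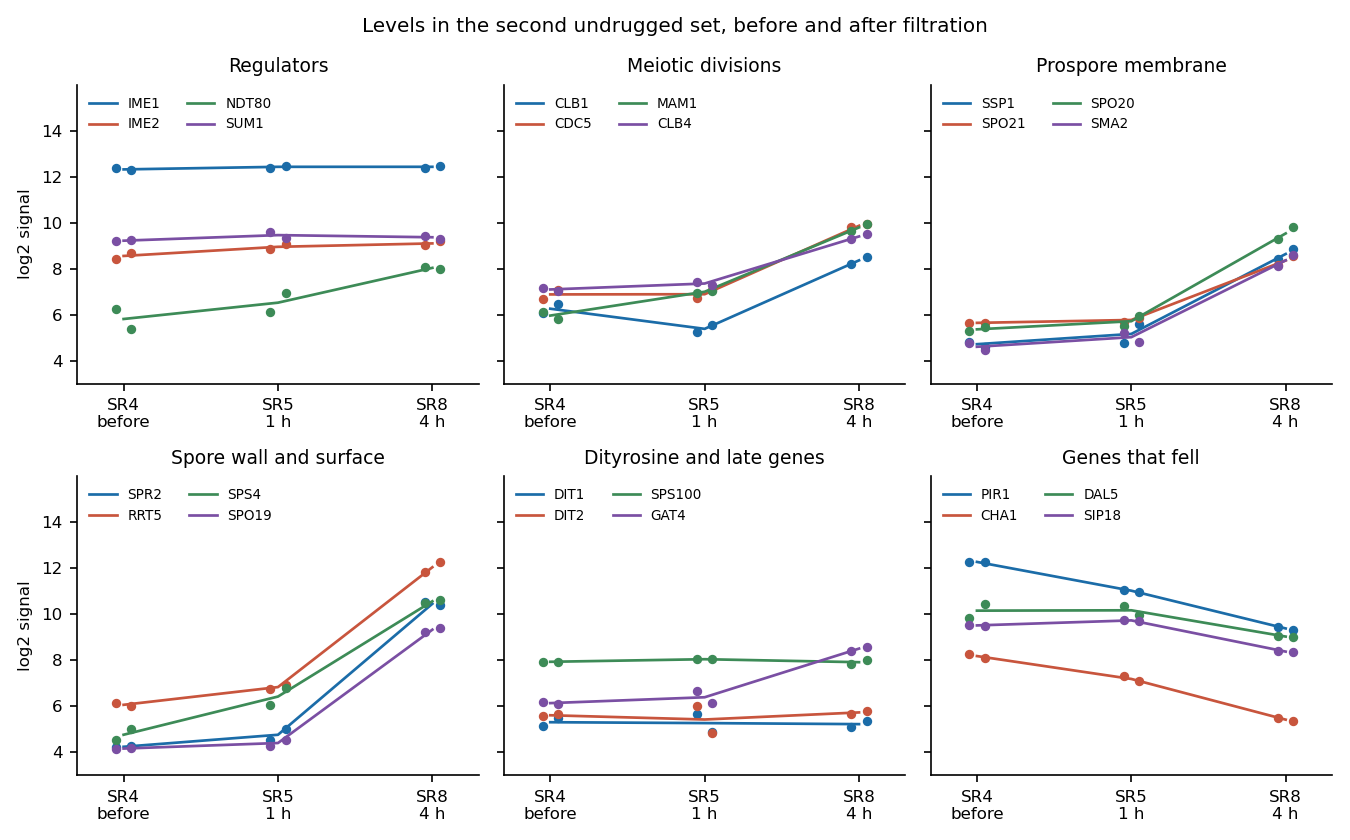
Log2 signal of 24 genes on the 6 arrays of the second undrugged set, before filtration (SR4), 1 h after it (SR5) and 4 h after it (SR8). Points are arrays and lines join the means of the 2 arrays. IME1 has 12.38 to 12.46 on the SR5 and SR8 arrays, whereas SPR2, RRT5, SPS4 and SPO19 are far higher on both SR8 arrays than on any earlier array, and DIT1, DIT2 and SPS100 are not.

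Regulators of meiotic entry were not called between 1 h and 4 h. IME1, the activator of early meiotic genes, had levels of 12.39 and 12.45 at 4 h, against 12.38 and 12.46 at 1 h, a difference of 0.00 ± 0.29 (SE). IME2, the meiotic protein kinase downstream of Ime1, had levels of 9.0 and 9.18 at 4 h, against 8.83 and 9.05 at 1 h. None of the 16 members of the meiotic entry list was called in either direction by limma, 0 of them had an unadjusted p under 0.05, and the list median was 0.13.

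Genes of recombination and synapsis likewise gave no call. None of 10 break formation genes, 17 genes of the chromosome axis and synaptonemal complex and 9 strand exchange genes passed the test, with list medians of 0.11, 0.22 and 0.05. At an unadjusted limma p under 0.05 there was 1 break formation gene and none in the others. SPO11, which makes the meiotic double-strand breaks, had levels of 8.20 and 8.16 at 4 h, against 7.69 and 7.94 at 1 h (0.36 ± 0.39, SE, adjusted p = 0.68). In the axis list the smallest adjusted p was 0.249, for ECM11, a component of the synaptonemal complex central region. DNA replication genes, which act before recombination, gave 3 lower calls and 0 higher ones among 22 members. These were RFA3 (−0.50), PRI2 (−0.59) and POL30 (−0.64), for a subunit of the single-strand binding protein, a primase subunit and the sliding clamp, and their calls were lost with the values as deposited, with median centring and with array weights.

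NDT80 itself rose. Its levels were 8.06 and 8.0 at 4 h, against 6.11 and 6.92 at 1 h, a difference of 1.51 ± 0.32 (SE, adjusted p = 0.00362). The SR5 arrays lay further apart than the SR8 arrays, and the call was lost without SR5 replicate 1. Of the Sum1 repressor complex, SUM1 had levels of 9.43 and 9.29 at 4 h, against 9.60 and 9.31 at 1 h, and was not called. HST1, its deacetylase partner, had a difference of 0.45 ± 0.14 (SE, adjusted p = 0.0618), and RFM1, which links both, 0.62 ± 0.24 (SE, adjusted p = 0.123). HST1 was called higher with the values as deposited, with median centring and in the second set alone.

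Of the 20 division regulators 12 rose and none fell, with a list median of 0.83. The smallest SE among them belonged to MAM1, a subunit of the monopolin complex that makes sister kinetochores face the same pole in meiosis I. Its levels were 9.65 and 9.92 at 4 h, against 6.94 and 7.04 at 1 h (2.80 ± 0.16, SE, adjusted p = 8.46e-10). CLB1, a B-type cyclin of the meiotic divisions, had levels of 8.21 and 8.49 at 4 h, against 5.22 and 5.53 at 1 h (2.98 ± 0.32, SE). CDC5, the polo kinase needed to leave pachytene, had levels of 9.80 and 9.92 at 4 h, against 6.71 and 7.05 at 1 h (2.98 ± 0.30, SE). The cyclin CLB4 rose by 2.05 and SPO12, a regulator of exit from the divisions, by 1.70. AMA1, the meiosis-specific activator of the anaphase-promoting complex, rose by 0.77 ± 0.21 (SE, adjusted p = 0.0313), and this call was lost in 5 alternatives, among them array weights. For all of these genes both SR8 arrays lay above both SR5 arrays.

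Of 10 genes of the meiotic outer plaque and the leading edge, 8 rose, with a list median of 1.98 and no fall. The outer plaque of the spindle pole body is where the prospore membrane starts, and the leading edge coat shapes its open rim. SSP1, a leading edge protein that has to be removed before the membrane closes, had levels of 8.40 and 8.87 at 4 h, against 4.75 and 5.57 at 1 h (3.48 ± 0.26, SE). SPO21, the outer plaque scaffold also called MPC70, had levels of 8.17 and 8.53 at 4 h, against 5.69 and 5.83 at 1 h (2.59 ± 0.25, SE). IRC10 rose by 3.06, the outer plaque gene SPO74 by 2.59 and the leading edge gene DON1 by 2.24.

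Growth and closure of the prospore membrane showed the same direction, with 12 of 16 members higher, 0 lower and a list median of 2.31. SPS1, a kinase of the Ste20 group needed to close the membrane, had levels of 9.70 and 10.00 at 4 h, against 5.07 and 5.23 at 1 h (4.70 ± 0.27, SE, adjusted p = 8.46e-10). SPO20, the sporulation-specific SNARE that brings vesicles to the membrane, rose by 3.82 and SPO77, which acts in closure, by 3.81. SMA2 and SMA1, both needed for membrane growth, rose by 3.34 and 3.31. The sporulation septin SPR3 had levels of 9.57 and 10.04 at 4 h, against 6.71 and 5.18 at 1 h (3.86 ± 0.34, SE). Its SR5 arrays lay far apart, and both were below the SR8 arrays. Together with the other sporulation septin SPR28 (3.24) and the septins CDC10 (1.44) and CDC3 (1.08), 4 of 7 septin genes rose, and the call of CDC3 was lost without SR5 replicate 1.

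Of 7 sporulation kinase genes, 4 rose. Beside SPS1 these were SMK1, the MAP kinase of spore wall formation (3.85), SSP2, its activator (3.7), and CAK1, the kinase that phosphorylates Smk1 (0.72 ± 0.13, SE, adjusted p = 0.00115). CAK1 was not called in the fit of the 4 arrays alone. RIM11, a kinase that acts with Ime1, had a difference of 0.09 and was not called.

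Spore wall and surface genes had a list median of 3.13, with 12 of 16 higher and none lower. SPO19, a GPI-anchored spore wall protein, had levels of 9.24 and 9.40 at 4 h, against 4.26 and 4.52 at 1 h (4.93 ± 0.39, SE). SPS2 and its relative SPS22, which organize the beta-glucan layer, rose by 4.35 and 3.16. OSW1, needed for the outer wall, rose by 4.13, GAS4, a beta-glucan elongating enzyme, by 3.60, and MUM3 by 3.04. SPS100, a late wall protein gene, stood apart with levels of 7.82 and 7.99 at 4 h, against 8.03 and 8.04 at 1 h, and was not called (−0.13 ± 0.15, SE).

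In the outer wall layers the calls differed by step. CDA2 and CDA1, the chitin deacetylases that make chitosan, rose by 3.61 and 3.67, and DTR1, the transporter that exports bisformyl dityrosine, rose by 3.85. The enzymes that make the dityrosine precursor were not called. DIT1 had levels of 5.10 and 5.33 at 4 h, against 5.65 and 4.87 at 1 h (−0.05 ± 0.24, SE, adjusted p = 0.951). DIT2 had levels of 5.67 and 5.78 at 4 h, against 6.0 and 4.83 at 1 h (0.31 ± 0.26, SE, adjusted p = 0.582), and was called higher without SR5 replicate 1. The SR8 arrays lay between the 2 SR5 arrays for both genes, and the levels are close to the 25th percentile of all values. CHS3, the chitin synthase of the spore wall, had a difference of 0.32 and CHS6, which brings Chs3 to the surface, 0.28, neither called. In all 3 of 9 genes of the chitosan and dityrosine list rose and 0 fell.

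Of 3 genes for lipid droplet proteins linked to the spore wall, 2 rose. LDS1 had levels of 10.75 and 10.78 at 4 h, against 6.67 and 6.74 at 1 h (4.06 ± 0.22, SE), and LDS2 had 10.99 and 11.17 at 4 h, against 6.39 and 6.98 at 1 h (4.40 ± 0.40, SE). RRT8 had a difference of 0.53 and was not called. SPS4, a sporulation gene related to these, had 10.49 and 10.61 at 4 h, against 6.05 and 6.77 at 1 h (4.14 ± 0.29, SE).

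All 4 small GATA zinc finger genes rose. SRD1 had levels of 7.32 and 8.06 at 4 h, against 4.52 and 3.74 at 1 h (3.56 ± 0.25, SE). GAT4 had 8.41 and 8.59 at 4 h, against 6.65 and 6.11 at 1 h (2.12 ± 0.18, SE), and ECM23 rose by 2.01. GAT3 rose by 0.88 ± 0.18 (SE, adjusted p = 0.00257), with levels of 5.48 and 5.72 at 4 h, and its call was lost with array weights and without SR8 replicate 2.

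Over the 13 alternatives, which include leaving out SR5 replicate 1, the number of higher calls ran from 9 to 14 among the 20 division regulators and from 8 to 9 among the 10 outer plaque and leading edge genes. It ran from 10 to 13 among the 16 prospore membrane genes and from 12 to 15 among the 16 spore wall and surface genes, and no member of these lists was called lower under any of them.

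**Figure D2:**
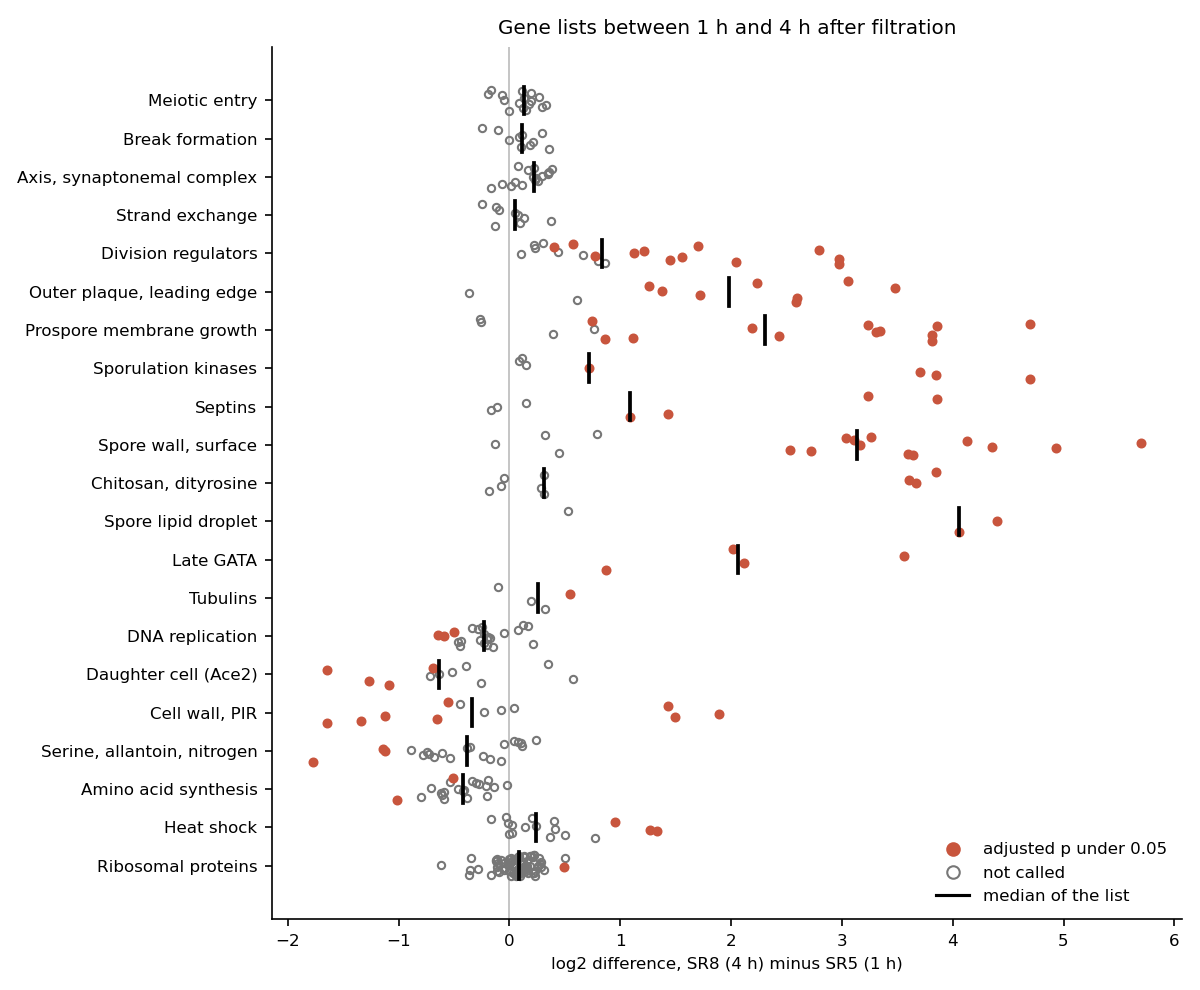
Log2 difference of each member of 21 gene lists, SR8 (4 h) minus SR5 (1 h), with 2 arrays in each group. Filled points passed the test, open points did not, and black bars are list medians. Lists of meiotic entry and recombination lie around 0 with no filled point, whereas spore wall and surface genes reach 5.70 around a median of 3.13.

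Other genes with the largest rises have fewer known roles. SPR2 and 14 other genes had the largest measured rises, namely YPR078C (5.42), RRT5, YDL186W (4.94), SPO19, IRC18 (4.86), PES4 (4.74), RRT12 (4.72), SPS1, YDR042C (4.61), YFL012W (4.51), LDS2, SPS2, SPS4 and OSW1. IRC18 is known in outer spore wall assembly, RRT12 encodes a subtilisin-like protease of the dityrosine layer, and PES4 encodes an RNA-binding protein. YPR078C, YDL186W, YDR042C and YFL012W have no gene name. SPR2, YDL186W, SPO19, RRT12, SPS1, YFL012W and OSW1 had both 1 h levels under 5.44, so the sizes of their rises and their order are uncertain. YPR078C had levels of 11.27 and 11.62 at 4 h, against 6.29 and 5.76 at 1 h. All 15 of these genes were called in each of the 13 alternatives tried.

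Counted by gene, 188 genes rose by at least 2-fold, among them 52 by at least 8-fold and 16 by at least 16-fold. On the arrays before filtration their median level was 6.08, at 1 h 6.33 and at 4 h 8.68. The step from 1 h to 4 h chose these genes, so its share of the rise is fixed by that choice. At 1 h, 59 of the 188 had a mean level under the filter threshold of 5.44. The lists of Ndt80, division, septin, kinase, membrane, wall, lipid droplet and GATA genes held 55 of the 188, and 25 carried no gene name. The same shares over all genes tested were not counted, so neither number shows an enrichment.

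Of the spindle genes, 2 of 16 motor and midzone, 1 of 6 checkpoint and 1 of 4 tubulin genes rose. None fell, and 5.47% of all probe sets were called higher. Of 16 motor and midzone genes, STU2, a microtubule polymerase, rose by 1.62 ± 0.21 (SE, adjusted p = 1.7e-05) and ASE1, the midzone bundler, by 0.98 ± 0.28 (SE, adjusted p = 0.0361), with the ASE1 call lost in 6 of 13 alternatives. MPS1, a kinase of spindle pole duplication and the checkpoint, rose by 1.01 ± 0.30 (SE, adjusted p = 0.044), a call lost in 7 alternatives. MAD2, the checkpoint component, had levels of 7.24 and 7.20 at 4 h, against 6.88 and 7.34 at 1 h, and was not called. Of the tubulin genes, TUB3, the minor alpha-tubulin, rose by 0.55 ± 0.13 (SE, adjusted p = 0.0099), and its call was lost in 5 alternatives. TUB1, the major alpha-tubulin, had a difference of 0.32 and TUB2, the only beta-tubulin, 0.19, neither called.

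Falls were smaller than rises, and the 19 genes lower by at least 2-fold included none below −1.77. CHA1, the serine and threonine deaminase, had levels of 5.48 and 5.34 at 4 h, against 7.29 and 7.07 at 1 h (−1.77 ± 0.28, SE, adjusted p = 0.000271). PIR1, a cell wall protein of the PIR family, had 9.43 and 9.32 at 4 h, against 11.06 and 10.97 at 1 h (−1.64 ± 0.25, SE, adjusted p = 0.000163). The other largest falls were NCE103 (carbonic anhydrase, −1.44), YIL165C (−1.36), SIP18 (−1.36), PIR3 (−1.34), DSE2 (−1.27), NIT1 (−1.26), CRH1 (−1.19), DAL5 (−1.14), PUT4 (−1.14) and PST1 (−1.12). Of these 12 falls, 8 were called in every alternative. The exceptions were NCE103, lost with array weights, SIP18, lost without any 1 of 3 arrays, DAL5, lost in 4 alternatives, and PUT4, lost in 8.

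Wall and daughter-cell genes made up part of the falls. Of 11 daughter-specific genes 4 fell, namely PIR1, DSE2, the chitinase gene CTS1 (−1.08) and ASH1 (−0.69). ASH1 encodes a repressor that acts in daughter cells, and the list median was −0.63. The call of CTS1 was lost in 7 alternatives and that of ASH1 in 9. PIR1 had already been at 12.27 and 12.26 before filtration, and DSE2 at 9.62 and 9.62. In the cell wall list 5 of 12 fell, including PIR1, PIR3 and PST1, while 3 rose against the list median of −0.34. These were CWP1, a mannoprotein (1.89), CIS3, a PIR family member (1.49), and WSC4, a membrane sensor (1.43). The CWP1 call was lost without SR8 replicate 2.

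Nitrogen and amino acid genes had medians below 0, and the number of calls depended on the arrays in the fit. Of all probe sets 2.63% were called lower. In the list of serine, allantoin and nitrogen genes 3 of 21 fell, with a median of −0.38, namely CHA1, the allantoate permease gene DAL5 and DAL3 (−1.12), for an enzyme of allantoin breakdown. The calls of both DAL genes were lost with array weights and without SR8 replicate 1. ARG1 (−1.01) and ORT1 (−0.51), both of arginine synthesis, fell among 21 amino acid biosynthesis genes, and the median was −0.42. The ORT1 call was lost in 10 of 13 alternatives. With the arrays of the second set alone 10 of 21 genes were called lower in each of these 2 lists, beside 357 probe sets in all. CPS1, a vacuolar carboxypeptidase, fell by 1.04 ± 0.16 (SE, adjusted p = 0.000145) as 1 of 8 vacuolar protease genes.

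Some members of other lists were called, where 5.47% of all probe sets were called higher and 2.63% lower. SGA1, the sporulation-specific glucoamylase that breaks down glycogen, had levels of 11.98 and 12.25 at 4 h, against 9.23 and 8.60 at 1 h (3.20 ± 0.25, SE), as the 1 call among 9 glycogen genes. Among 17 heat shock genes the Hsp70 genes SSA3 and SSA4 rose by 1.33 and 1.27 and the cochaperone gene SIS1 by 0.95, the last not called in the fit of the 4 arrays alone. ATG3, which attaches Atg8 to lipid, rose by 1.31 as the only call among 13 autophagy genes. Of 75 ribosomal protein genes, RPL38 alone was called (0.49 ± 0.15, SE, adjusted p = 0.0462), with a list median of 0.09, and its call was lost in 8 alternatives. DRS1, a helicase of ribosome assembly, rose by 1.11 as the 1 call among 22 ribosome biogenesis genes, and the call was lost in the fit of the 4 arrays alone and, with a difference of 0.65, without SR8 replicate 2. Of 10 G1 genes, CLN2, a G1 cyclin, rose by 0.60 and SIC1, a cyclin kinase inhibitor, fell by 0.54, with the calls lost in 6 and 8 of 13 alternatives. TSL1, a subunit of trehalose synthase, fell by 0.54 as the 1 call among 7 trehalose genes, and SIP18 and DDR2 (−0.56) fell among 18 general stress genes. The TSL1 call was lost in 7 alternatives and the DDR2 call in 10. No gene was called among 4 histone, 16 sulfur and methionine, 32 proteasome, 19 respiratory, 15 glycolytic and 11 glyoxylate cycle and gluconeogenesis genes. At an unadjusted limma p under 0.05 these lists had 0, 3, 1, 2, 1 and 1 genes in the same order.

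The course in DMSO covered the same hours from 1 to 4 h after filtration, in the first set and with no array in common. Of the 188 genes that rose by at least 2-fold in the undrugged course, 187 were called higher in the DMSO course, where 17.8% of probe sets were called higher and 25.8% lower. Their median difference was 1.77 in the undrugged course and 2.5 in the DMSO course, the first of which was used to choose them. Of the 19 genes lower by at least 2-fold, 17 were called lower in the DMSO course. Over 5464 genes the differences of both courses correlated at 0.740, as a description over genes that are not independent.

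The levels of the 188 genes stood lower in the undrugged course at both times. At 4 h their median was 8.68 on the SR8 arrays, against 10.22 on the SD8 arrays. At 1 h it was 6.33 on the SR5 arrays, against 7.67 on the SD5 arrays. Over all 5464 genes tested the medians were 7.62 on SR8 and 7.6 on SD8, and 7.58 on SR5 and 7.62 on SD5. Choosing the 188 genes by SR8 minus SR5 favours low SR5 levels, so that choice may have made part of the 1 h gap. For 181 of the 188 genes the SR8 mean lay above the SD5 mean and below the SD8 mean, a position held by 1011 of all 5464 genes tested. For 17 of the 19 genes that fell, the SR8 mean lay below the SD5 mean and above the SD8 mean, as it did for 1781 of the 5464. Both groups of genes were chosen by SR8 minus SR5, which favours an SR8 mean beyond the SD5 mean in these counts. The courses differ in set of arrays as well as in DMSO, and for the courses and the 4 h levels these cannot be told apart. At 1 h the series also holds the SF5 arrays, of the first set and with no DMSO given. They were not compared here, so the part of each at 1 h was not tested.

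Tested as a difference of differences, the undrugged course was larger than the DMSO course for 489 probe sets (6.21%) and smaller for 620 (7.87%). Among the 188 genes the difference was called larger for 23 and smaller for 70, with the choice of genes favouring the undrugged course. The larger differences included SPO19 (3.24 ± 0.55, SE, adjusted p = 0.00101), LDS2 (2.93 ± 0.56, SE, adjusted p = 0.00222) and SPS4 (2.65 ± 0.42, SE, adjusted p = 0.000607). For these genes the 2 courses were closer at 4 h than at 1 h. SPO19 had means of 9.32 on SR8 and 9.68 on SD8, and of 4.39 on SR5 and 8.0 on SD5.

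For the GATA genes the gap lay at the later time. All 4 rose less than in DMSO, with differences of differences of −3.05 ± 0.25 (SE, adjusted p = 1.69e-06) for GAT4, −2.51 for GAT3, −2.30 for SRD1 and −1.78 for ECM23. GAT4 had means of 8.50 on SR8 and 10.95 on SD8, and of 6.38 on SR5 and 5.78 on SD5. DIT1 and DIT2, not called in the undrugged course, had course differences smaller than in DMSO by 1.38 ± 0.33 (SE, adjusted p = 0.0103) and 1.59 ± 0.37 (SE, adjusted p = 0.00801). DIT1 had means of 5.21 on SR8 and 6.72 on SD8, and of 5.26 on SR5 and 5.39 on SD5. HXT10, a hexose transporter gene, followed the same order, with means of 6.89 on SR8 and 9.47 on SD8 (−3.04 ± 0.24, SE, adjusted p = 1.51e-06).

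**Figure D3:**
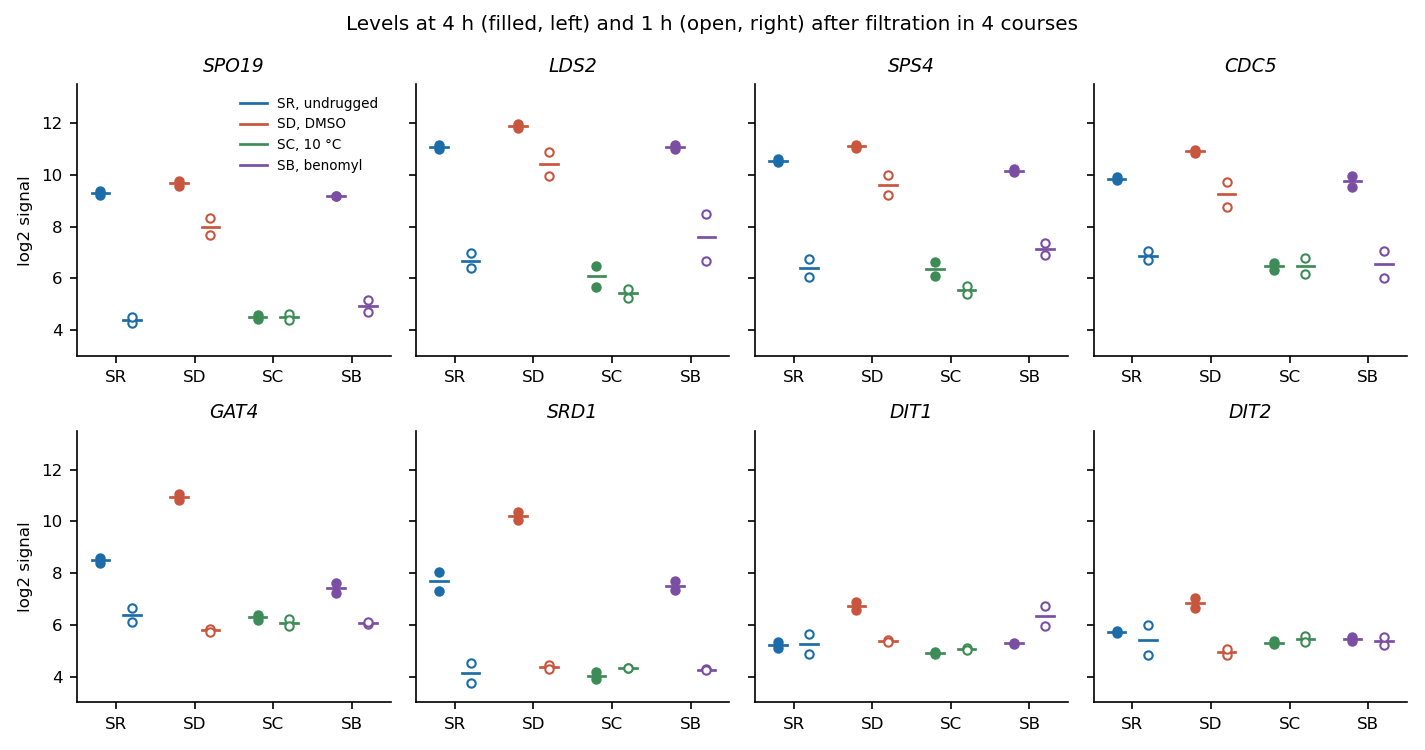
Log2 signal of 8 genes at 4 h (filled) and 1 h (open) after filtration in the undrugged second-set course (SR), in DMSO (SD), at 10 °C with DMSO (SC) and in benomyl (SB). Points are arrays and dashes are means of 2 arrays. SPO19, LDS2 and SPS4 are already high on the SD5 arrays, whereas GAT4 and SRD1 differ between SR and SD at 4 h.

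Ribosomal protein genes differed between these courses. Their list median was 0.09 in the undrugged course and −0.70 in the DMSO course, and the difference was called larger in the undrugged course for 46 of 75 members and smaller for 1, against the 6.21% and 7.87% of all probe sets. Some of these genes share near-identical copies whose probes can cross-hybridize, so the members are not independent measurements.

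At 10 °C with DMSO few of the genes of the undrugged course were called. Only 5 of the 188 genes were called higher in the cold course, where 2.43% of probe sets were called higher and 2.74% lower, and their median difference there was 0.05. Their median level was 6.36 on the SC8 arrays and 6.17 on the SC5 arrays. The choice of the 188 by SR8 minus SR5 favours the undrugged course in a difference of differences. In that test, 172 of the 188 were called larger in the undrugged course and none smaller. Over all probe sets 394 were larger (5%) and 223 smaller (2.83%). The largest were RRT5 (5.25 ± 0.36, SE, adjusted p = 5.98e-08), YDL186W (5.16), YPR078C (5.08), SPR2 (4.98) and SPO19 (4.93). RRT5 had means of 12.03 on SR8 and 7.04 on SC8, and of 6.82 on SR5 and 7.08 on SC5.

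Some genes went the other way in the cold. ADH5, an alcohol dehydrogenase gene, had a course difference of −1.08 in the undrugged set and 1.59 at 10 °C (−2.67 ± 0.30, SE, adjusted p = 7.16e-06). SIP18 had −1.36 in the undrugged course and 1.09 at 10 °C. In the list of serine, allantoin and nitrogen genes 8 of 21 differences were smaller and 1 larger than at 10 °C, with medians of −0.38 in the undrugged course and 0.21 at 10 °C. Of the 19 genes that fell by at least 2-fold, 4 were called lower at 10 °C. For 11 the difference between the courses was called, with the choice of genes favouring a larger fall in the undrugged course. Both courses were placed in the second set, but the labels do not say that their arrays were run together. Temperature and DMSO changed together, and these and a possible batch difference cannot be told apart.

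In benomyl most of the 188 genes were higher at 4 h as well. Of these, 167 were called higher in the benomyl course, where 25.5% of probe sets were called higher and 24% lower, and the median difference was 1.85 there and 1.77 in the undrugged course. At 4 h the median level was 8.68 on the SR8 arrays and 8.76 on the SB8 arrays. The difference of differences was called larger in the undrugged course for 32 of the 188 and smaller for 10. Over all probe sets 1099 were larger (14%) and 1261 smaller (16%). The choice of the 188 favours the undrugged course here too. Of the 19 genes that fell by at least 2-fold, 6 were called lower in benomyl. Their median difference was −1.14 in the undrugged course, which was used to choose them, and −0.23 in benomyl. For 12 the difference between the courses was called, with that choice favouring a larger fall in the undrugged course. YDR042C rose by 4.61 in the undrugged course and had a difference of 1.06 in benomyl, with the gap at 1 h. Its means were 10.19 on SR8 and 10.04 on SB8, and 5.57 on SR5 and 8.98 on SB5. The SB5 arrays correlated with each other at 0.942, the lowest of any pair, and the counts against benomyl were 756 in place of 2360 when the fit was limited to the 4 groups.

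The largest differences from the benomyl course included genes whose 1 h and 4 h levels were close in the undrugged one. YKL070W, a gene of unknown function, had means of 5.92 on SR8 and 6.29 on SB8, and of 5.70 on SR5 and 12.46 on SB5. FRM2, a nitroreductase family gene, had 7.90 on SR8 and 7.49 on SB8, and 8.17 on SR5 and 13.34 on SB5. GDH1, the glutamate dehydrogenase gene, had 11.59 on SR8 and 11.85 on SB8, and 11.55 on SR5 and 7.82 on SB5. In the undrugged course none of these genes was called, with differences of 0.21, −0.28 and 0.04.

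**Figure D4:**
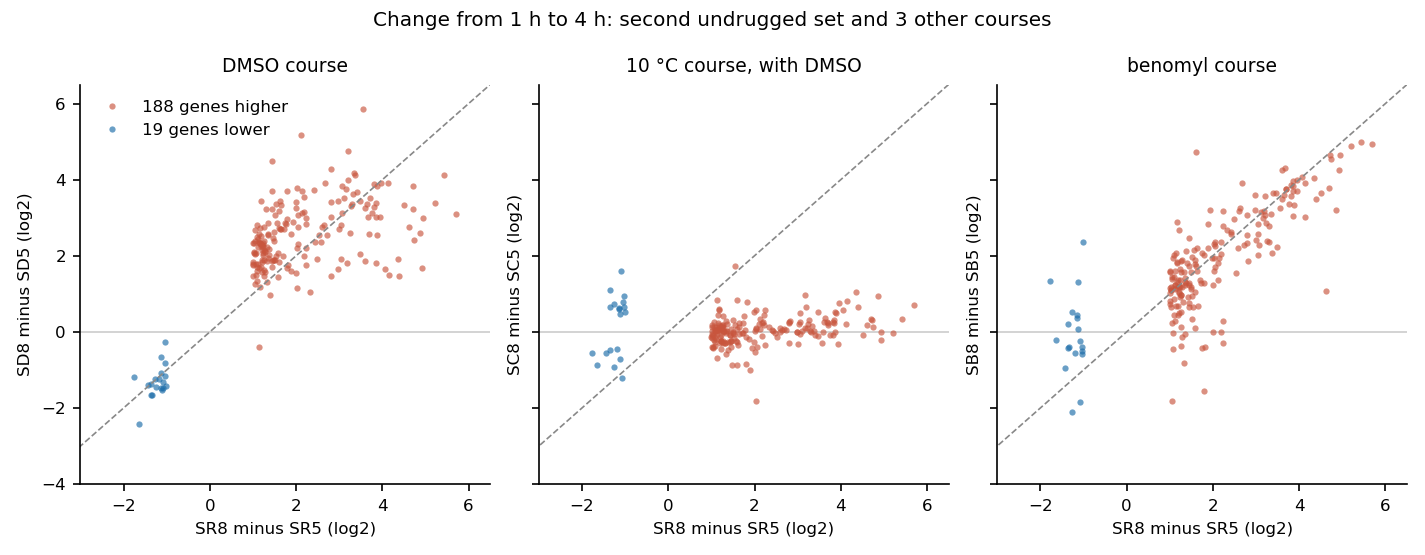
Log2 change from 1 h to 4 h after filtration of the 188 genes that rose and the 19 that fell by at least 2-fold in the undrugged second-set course (x axis), against the same change in DMSO, at 10 °C with DMSO and in benomyl (y axes). Each point is a gene and the dashed line marks equal change. The 188 genes centre on 2.5 in DMSO, 0.05 at 10 °C and 1.85 in benomyl.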

How the data were processed

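Total RNA was measured on 26 Affymetrix arrays, of type YG_S98 per the file headers of the first set. The authors deposited processed log2 signals for 9335 probe sets. That the logarithm has base 2 was read from the range of the values, and the method and scaling are not given in the sources used here. For 16 arrays deposited instrument text files of another kind (unit "other"), per the file headers, hold settings and a scan day and no expression values. The second set is the 10 arrays for which no such file was used here.

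The values were quantile normalized, and 60 control probe sets and 1399 whose highest group mean was at or under 5.44 were left out. Of the remaining 7876, 6133 had 1 gene (5464 genes, each represented by its brightest probe set on average). Names came from the supplied annotation tables, and FAS1 is uncertain because its probe set can match near copies. Among 275 genes with several probe sets, 0 had opposite calls between SR8 and SR5. The model in limma (limma 3.58.1, R 4.3.3) held 13 group means and a variance trend, with 13 residual degrees of freedom, and gave SR8 minus SR5 and its differences from the SD, SC and SB courses. The tests are two-sided. The fit was tested on data of known answers, where it called 97 of 100 probe sets given a log2 effect of 2 and 92 of 100 given 1. It also called 14 of 7676 given no effect. These shares need not hold for the course itself, because the SR5 arrays spread more than most pairs.

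The text names the 15 largest rises, the 12 largest falls, 5 each way per difference, up to 5 members of each of 39 lists by adjusted p, members called against their list's median, and 22 genes whatever their values. Members and lists were chosen with earlier results of these data known, and no list was tested as a set. In the second set the replicate numbers were not taken to pair the arrays: residuals of equal numbers correlated at −0.289 between SR5 and SR8, and at −0.229 to 0.391 over the 9 other pairs of its groups, the highest being SR4 with SR5 and SR4 with SC5. In the first set, outside YPD, replicates 1 were scanned on day 1 and replicates 2 on day 2, per the file headers, and scan day was tried as a block. The number of arrays, 2 in each group, limits the precision. Alternatives changed scaling, filter, variance trend, arrays in the fit, blocks and array weights, and left out each array in turn.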

Additional observations from a re-analysis of the deposited data

Results flagged for a closer look

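The undrugged second-set course differed from each of the other courses, by a test of the difference itself in limma. The counts of probe sets were 1109 against DMSO, 617 against 10 °C with DMSO and 2360 against benomyl.

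Against the DMSO course the log2 change of the undrugged course was larger for SPO19 (3.24), ISF1 (2.99), CIN5 (2.95), LDS2 (2.93) and SPS4 (2.65). It was smaller for GAT4 (−3.05), HXT10 (−3.04), YLR012C (−2.76), GAT3 (−2.51) and SRD1 (−2.30). ISF1 and CIN5, the gene of a bZIP factor, had log2 differences of 0.01 and 0.22 in the undrugged course and of −2.98 and −2.73 in DMSO.

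Against the course at 10 °C with DMSO it was larger for RRT5 (5.25), YDL186W (5.16), YPR078C (5.08), SPR2 (4.98) and SPO19 (4.93). It was smaller for ADH5 (−2.67), DIC1 (−2.49), HIS4 (−2.47), SIP18 (−2.45) and DAL4 (−2.37).

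Against the benomyl course it was larger for YKL070W (6.39), FRM2 (5.57), YDL218W (5.29), HSP30 (4.55) and TDH1 (4.38). It was smaller for FAS1 (−4.26), whose probe set is uncertain, GDH1 (−3.99), OLE1 (−3.76), MEP2 (−3.71) and ITR1 (−3.59). All 30 of these gene differences were called in each of the 17 alternatives run for them.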

How the results depend on the processing

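For SR8 against SR5, the count of 638 was 324 with only the groups of the contrast and 351 with array weights, and ran from 306 to 1044 with an array left out (561 without SR5 replicate 1). With the 10 arrays of the second set alone it was 481 higher and 357 lower. Against DMSO the count ran from 503 to 1399 with an array left out, with the lowest counts without SD5 replicate 2 (628), SD8 replicate 2 (503), SR8 replicate 1 (518) or SR8 replicate 2 (735), and the values as deposited gave 331 larger and 668 smaller. Against 10 °C it ran from 346 to 827, with 389 without SC5 replicate 1, 407 without SC8 replicate 1 and 346 without SR8 replicate 2, and the deposited values gave 472 larger and 110 smaller. Against benomyl it was 756 with only the groups of the contrast and 1079 with array weights, and ran from 1725 to 3289 with an array left out. A replicate block gave 617, 1099, 594 and 2345, and scan day as a block 1102 against DMSO and 2352 against benomyl. Where leaving out an array left 1 in a group, that array was assumed to vary like the other groups.

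Among list medians of differences between courses, spore wall and surface genes against DMSO (0.19) turned to −0.018 as deposited and −0.009 with median centring and ran from −0.287 without SD5 replicate 1 to 0.722, and general stress genes ran from −0.016 without that array to 0.295. G1 cyclin genes against 10 °C ran from −0.226 to 0.023 (without SR5 replicate 2), with 0.01 without SC5 replicate 1. Against benomyl, G1 cyclin genes ran from −0.008 (without SB5 replicate 1) to 0.184, general stress genes from −0.325 (without SB5 replicate 1) to 0.614, outer plaque genes from −0.286 to 0.005 (without SB5 replicate 2) and prospore membrane genes from −0.014 (without SR8 replicate 2) to 0.323. The difference of HOR7 turned to 0.071 with median centring. The cause was not tested. Between SR8 and SR5 no called gene named here changed sign, while 12 list medians near 0 did under 1 or more alternatives. The planned search of promoters for motifs was not run, because no promoter sequences were used here.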
